A study of Mus musculus with 40 samples.

Results

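Livers of intact female C57BL/6J mice, which kept their ovaries, were compared with livers of intact males, which kept their testes. C57BL/6J is an inbred laboratory strain. The comparison used 10 of the 40 arrays of the study, 1 array per animal: 5 intact females (animals 1 to 5 of the labels) and 5 intact males (animals 8 to 12). Of the 23574 probes tested, those described here stand for 10440 named autosomal genes. All mice ate chow with 4% fat and were sacrificed at 14 weeks of age after a fast of 12 h. The other 30 livers came from ovariectomized females and castrated males, gonadectomized at 8 weeks, that carried a placebo, estradiol (0.5 mg) or dihydrotestosterone (DHT, 5 mg) pellet from 12 weeks, with 5 animals per group. Whether the intact animals carried a pellet is not in the labels, nor is any batch, slide or collection time. On every array the liver RNA carried Cy5 and a pool of liver from 40 mice carried Cy3, with no dye swap, so each value below is the log2 ratio of a liver to that pool. Such a ratio does not rank genes by abundance, and it cannot show which cell types a liver holds. In whole tissue, fewer cells of a type and less RNA per cell cannot be told apart.

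The liver is among the organs whose gene expression differs most between male and female mice. In males the pituitary releases growth hormone in separated pulses, in females more evenly, and the hepatocyte reads this pattern through the growth hormone receptor, the kinase JAK2 and the transcription factor STAT5b. HNF6 and CUX2 are homeodomain factors linked to sex-biased genes in mouse liver, CUX2 being found mainly in females. Many of the genes involved encode cytochrome P450 enzymes, which oxidize steroids, fatty acids and drugs, or the conjugating enzymes and transporters that act after them.

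Promoters are shown first for the genes that lay furthest apart between the sexes, as 300 bases each (250 before and 50 after the annotated start) from RefSeq on GRCm38.p6, written 5′ to 3′ on the gene's strand. The first set is the pair of neighbouring P450 genes with 2 of the 3 largest differences in favour of females, Cyp2b13 (chr7:26061245-26061544, plus strand) and Cyp2b9 (chr7:26173159-26173458, plus strand). Their windows are 99.3% identical, and capitals mark the 2 bases that differ, at positions 48 and 104.
Cyp2b13: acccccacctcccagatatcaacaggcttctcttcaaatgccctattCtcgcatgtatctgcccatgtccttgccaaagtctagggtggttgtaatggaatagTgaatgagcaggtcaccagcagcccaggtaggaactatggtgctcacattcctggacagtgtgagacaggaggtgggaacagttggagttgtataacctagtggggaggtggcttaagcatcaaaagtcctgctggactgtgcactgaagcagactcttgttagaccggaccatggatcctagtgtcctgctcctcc
Cyp2b9: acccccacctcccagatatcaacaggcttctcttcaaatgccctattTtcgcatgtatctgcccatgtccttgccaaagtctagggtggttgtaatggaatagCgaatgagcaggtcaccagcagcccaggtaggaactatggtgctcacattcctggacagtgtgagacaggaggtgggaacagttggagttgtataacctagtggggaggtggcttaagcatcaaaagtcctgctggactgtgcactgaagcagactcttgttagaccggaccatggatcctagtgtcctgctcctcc
The second set is the 3 genes among the 15 with the largest female excess whose window holds both motifs searched. These were TTCNNNGAA, the palindrome of the kind STAT5 binds, and ATCAAT or its reverse complement ATTGAT, the core of the kind HNF6 and CUX2 bind. Both strands were searched, the motifs do not overlap in these windows, and capitals mark the matches.
Slc22a26 (chr19:7802618-7802917, minus strand): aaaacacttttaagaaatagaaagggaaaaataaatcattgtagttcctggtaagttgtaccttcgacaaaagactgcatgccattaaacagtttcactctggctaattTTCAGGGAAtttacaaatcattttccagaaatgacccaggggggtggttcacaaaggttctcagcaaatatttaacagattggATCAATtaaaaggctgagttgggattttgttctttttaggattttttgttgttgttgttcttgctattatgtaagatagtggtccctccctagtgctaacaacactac
A1bg (chr15:60921221-60921520, minus strand): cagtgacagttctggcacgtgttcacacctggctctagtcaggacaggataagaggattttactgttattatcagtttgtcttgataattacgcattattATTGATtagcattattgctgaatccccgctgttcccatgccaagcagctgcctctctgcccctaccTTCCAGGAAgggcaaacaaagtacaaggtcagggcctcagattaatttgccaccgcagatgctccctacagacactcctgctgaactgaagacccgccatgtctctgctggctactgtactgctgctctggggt
Sult3a1 (chr10:33857472-33857771, plus strand): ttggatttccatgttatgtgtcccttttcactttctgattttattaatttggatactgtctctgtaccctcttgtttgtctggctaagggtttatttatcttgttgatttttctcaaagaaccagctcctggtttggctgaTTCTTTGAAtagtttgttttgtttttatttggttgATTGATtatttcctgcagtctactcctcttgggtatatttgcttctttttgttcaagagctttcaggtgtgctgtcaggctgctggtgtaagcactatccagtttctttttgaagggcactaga
The last is Hsd3b5 (chr3:98645485-98645784, minus strand), the autosomal gene with the largest male excess, whose window holds neither motif.
Hsd3b5: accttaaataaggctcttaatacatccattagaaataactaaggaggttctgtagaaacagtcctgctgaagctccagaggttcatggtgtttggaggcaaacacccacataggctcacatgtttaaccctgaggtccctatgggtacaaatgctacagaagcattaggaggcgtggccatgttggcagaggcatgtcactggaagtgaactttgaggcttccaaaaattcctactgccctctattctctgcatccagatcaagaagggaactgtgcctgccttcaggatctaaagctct
Both motifs stood in 3 of the 13 genes with a promoter among the 15 highest and in 0 of 10 among the 15 lowest, against 0.604% of the 8273 measured autosomal genes with a promoter and 0.877% of all 27025 genes of the table. Whatever the other motif, TTCNNNGAA stood in 3 of the 13 and in 8.47% of the measured genes, and ATCAAT or ATTGAT in 4 of the 13 and in 5.97%. Over all genes that passed at 2-fold or more, both stood in 3 of 30 with a promoter on the female side and in 2 of 47 on the male side. A match here describes the letters of the window, and occupancy was not measured.

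A total of 997 of the 10440 named autosomal genes had a limma p under 0.05 after Benjamini-Hochberg adjustment over all probes, called passing below, which is 9.55%. Of these, 422 (4.04%) were higher and 575 (5.51%) lower in females than in males, and 94 (0.9%) differed at least 2-fold, 40 higher (0.383%) and 54 lower (0.517%). Over all probes 2048 passed (8.69%), 785 higher (3.33%) and 1263 lower (5.36%) in females. With array weights the count was 5443, and with only the 10 intact arrays in the fit it was 1249. The 5 females and 5 males did not overlap for 807 named autosomal genes, or 7.73%. Differences below are female minus male means on the log2 scale ± SE, so that a positive value means higher in females. Each SE and p-value rests on the spread pooled over all 8 groups of the study. The SE can therefore be smaller or larger than the scatter of the 10 intact animals would give. Over all named autosomal genes the median difference was 0.014. Chromosome 19, which carries Cyp2c, Slc22a and Elovl3 loci, had the highest share of genes that passed among the autosomes, 53 of 394 or 13.5%, with 31 higher and 22 lower in females. On the other autosomes the share lay between 6.98% (chromosome 16) and 11.2% (chromosome 8), and of the 392 X-linked genes 34 or 8.67% passed, 15 higher and 19 lower.

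**Figure D1:**
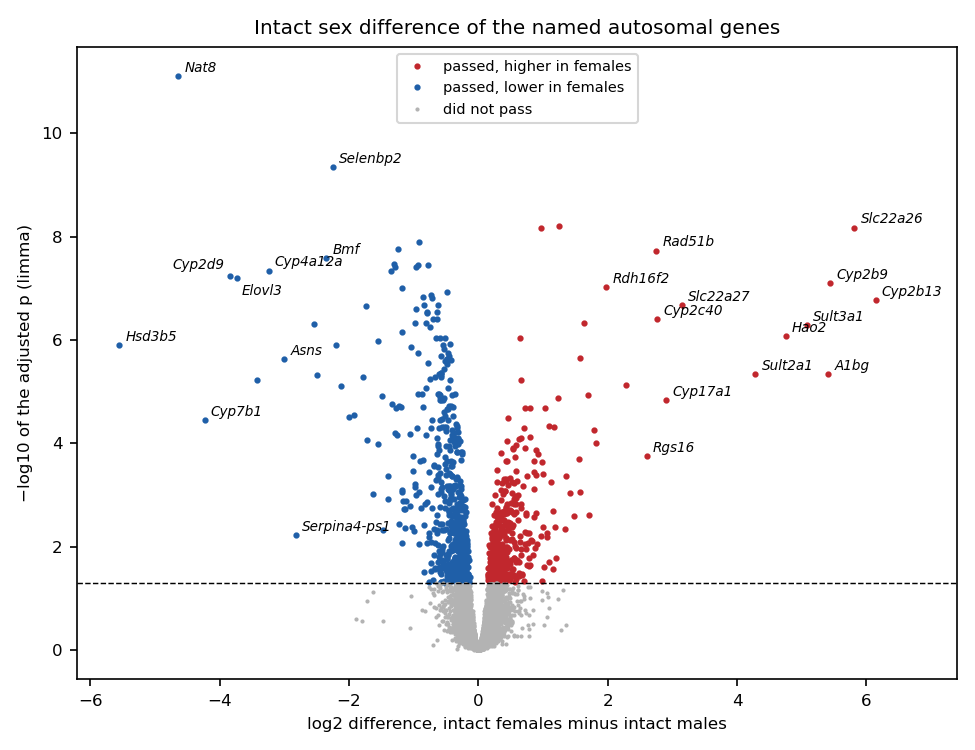
Each point is 1 of the 10440 named autosomal genes, with the log2 difference of intact females minus intact males on the x axis and −log10 of the limma adjusted p on the y axis. The dashed line marks an adjusted p of 0.05, and 422 red points (higher in females) and 575 blue points (lower in females) lie above it.

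The animals' sex labels matched the Y-linked translation factor gene Eif2s3y, which lay at -5.05, -5.53, -5.43, -4.08 and -4.31 in females and at 1.33, 1.18, 1.30, 0.41 and 1.14 in males. All males lay above all females, and male animal 11 was the lowest male. This animal stood apart from the other males more widely. It was the lowest male for 28 of the 54 autosomal genes that were at least 2-fold lower in females, and its mean log2 ratio over them was 0.629, against 0.935 to 1.09 in the other 4 males. Its mean over the 40 genes at least 2-fold higher in females was -1.63, against -1.92 to -1.84 in the others. Without animal 11, 2604 probes passed in place of 2048, and without male animal 8, 1455 did. The calls of the 30 genes described next held without each of the 10 animals in turn, and values without animal 11 are given for Rgs16, Cyp7b1, Asns, Selenbp2 and Serpina4-ps1, where it lay far from the other males.

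The P450 genes among the 15 highest in females are described first. Cyp2b13, a P450 of the drug-inducible 2b family, lay at 0.48, 0.80, 0.78, 0.68 and 0.70 in females, against -5.32, -5.66, -5.43, -4.80 and -6.06 in males. Its female mean exceeded the male mean 70.6-fold, a difference of 6.14 ± 0.72 (limma adjusted p = 1.68e-07). Females sat together just above the pool, within 0.31 of each other, and the lowest female lay 5.28 above the highest male. Cyp2b9, its neighbour with the almost identical promoter, lay at 0.46, 0.55, 0.93, 0.48 and 0.77 in females and at -4.66, -4.79, -4.52, -3.97 and -6.03 in males (5.43 ± 0.61, adjusted p = 7.83e-08). A further probe of each gene gave differences of only 0.71 and 0.24, and the arrays' separation of these near copies was not tested. Cyp2c40, a P450 that acts on arachidonic acid, differed by 2.77 ± 0.34, with females at 0.18 to 0.58 and males at -2.86 to -1.82, while its other 3 probes gave -0.0093, 1.13 and 1.57. Cyp17a1, the hydroxylase and lyase of androgen synthesis, lay at 0.75, 0.40, 0.039, -0.27 and 0.79 in females and at -2.28, -2.24, -2.79, -2.99 and -2.53 in males (2.91 ± 0.44), so that the groups were 1.98 apart at their nearest animals.

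The 15 also held sulfotransferase and other enzyme genes. Sult2a1, which sulfates steroids and bile acids, lay at 1.24, 1.15, 1.39, 1.49 and 1.58 in females, against -2.58, -3.57, -2.78, -2.44 and -3.20 in males (4.28 ± 0.61, adjusted p = 4.51e-06). Sult3a1, a sulfotransferase of amines whose promoter is shown above, lay at 1.0, 0.65, 0.70, 0.57 and 0.32 in females and at -4.83, -4.69, -4.30, -4.16 and -4.18 in males (5.08 ± 0.64). No animal of either sex came near the other group for these genes, and second probes gave 2.34 for Sult2a1 and 0.86 for Sult3a1. Hao2, a peroxisomal hydroxy acid oxidase, lay at 0.018, 0.83, 0.99, 1.47 and -0.0086 in females and at -4.32, -4.33, -4.18, -3.60 and -4.03 in males (4.75 ± 0.61). Rdh16f2, of the retinol dehydrogenase family, was 3.94-fold higher in females (1.98 ± 0.22, adjusted p = 9.62e-08), and its 10 animals spread little, at 0.26 to 0.72 in females and -1.65 to -1.2 in males.

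Transporter and secreted protein genes ranked among them, both Slc22a26 and A1bg above Sult3a1 in size. Slc22a26, an organic anion transporter gene, lay at 0.95, 0.60, 0.73, 0.17 and 0.76 in females and at -5.12, -5.26, -5.59, -4.75 and -5.12 in males, a 56.2-fold difference (5.81 ± 0.56, adjusted p = 6.69e-09). Its neighbour Slc22a27 differed by 3.15 ± 0.37, with females at 0.033 to 0.95 and males at -2.97 to -2.16. A1bg, a plasma glycoprotein gene of the immunoglobulin superfamily, lay at -0.43, -0.97, 2.25, 0.90 and 0.61 in females and at -4.98, -4.68, -5.05, -5.08 and -4.89 in males (5.41 ± 0.77). Here the females were the scattered group, over a range of 3.22, while the males lay within 0.40 of each other. The DNA recombination gene Rad51b differed by 2.74 ± 0.28, the calmodulin-binding family gene Pcp4l1 by 2.29 ± 0.33, and the growth arrest gene Gadd45b by 1.82 ± 0.31. For Gadd45b the nearest animals of the 2 groups were only 0.25 apart. Rgs16, which limits G protein signalling, lay at 0.012, -0.29, 0.15, 0.65 and -0.032 in females and at -2.64, -2.55, -3.30, -0.71 and -3.34 in males (2.6 ± 0.47, adjusted p = 0.000177). Male animal 11 was the 1 male near the females. Without it the difference was 3.05, and with quantile normalization it was 2.06 with a limma adjusted p of 0.0504.

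**Figure D2:**
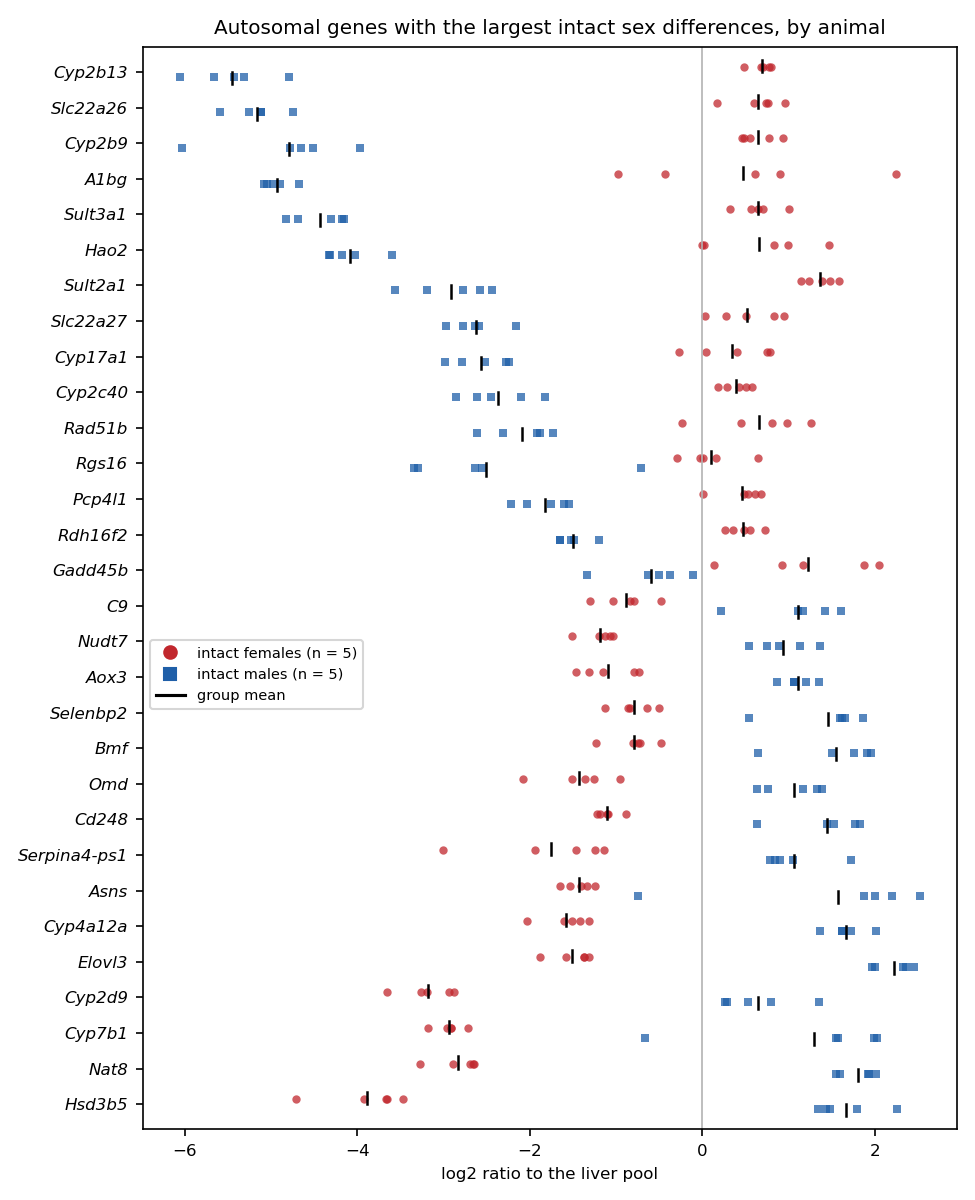
The log2 ratio to the liver pool (x axis) is shown for each intact female (red circles) and each intact male (blue squares) for the 15 highest and 15 lowest autosomal genes whose groups did not overlap, with group means as black bars. For the genes higher in females the female means lie above the pool, at 0.097 (Rgs16) to 1.37 (Sult2a1), and the male means below it, at -5.45 (Cyp2b13) to -0.59 (Gadd45b), and male animal 11 lies apart from the other males for Rgs16, Asns and Cyp7b1.

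Of the 15 genes lowest in females, those of steroid, sterol and fatty acid enzymes are described first. Hsd3b5, a ketosteroid reductase of the hydroxysteroid dehydrogenase family, lay at -3.92, -4.71, -3.47, -3.66 and -3.67 in females, against 1.34, 1.43, 1.80, 2.26 and 1.48 in males, 46.8-fold lower in females (-5.55 ± 0.73, adjusted p = 1.23e-06). The nearest animals were 4.82 apart, although a second probe read only -0.12 and did not pass. Cyp7b1, a hydroxylase of oxysterols and steroids, lay at -2.72, -2.92, -2.91, -3.19 and -2.96 in females and at 2.02, 1.55, 1.57, -0.66 and 1.99 in males (-4.23 ± 0.68). Male animal 11 lay below the pool and the other 4 males above it, and without it the difference was -4.72. Cyp2d9, a steroid hydroxylase, lay at -2.94, -3.19, -3.66, -3.26 and -2.88 in females and at 0.29, 1.36, 0.53, 0.80 and 0.27 in males (-3.83 ± 0.42). Elovl3, an elongase of long fatty acids, lay at -1.31, -1.89, -1.37, -1.59 and -1.37 in females and at 1.96, 2.33, 2.36, 2.0 and 2.46 in males (-3.73 ± 0.41). Cyp4a12a, a fatty acid hydroxylase, differed by -3.24 ± 0.35, with females at -2.04 to -1.31 and males at 1.36 to 2.01. In Cyp2d9, Elovl3 and Cyp4a12a the nearest animals of the groups were at least 2.68 apart.

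Nat8, an acetyltransferase of cysteine conjugates, was second only to Hsd3b5 in size on the male side and had the smallest adjusted p of the autosomal genes named here, 7.73e-12. It lay at -2.69, -3.27, -2.90, -2.66 and -2.64 in females and at 1.55, 1.60, 1.92, 1.94 and 2.01 in males, 24.9-fold lower in females (-4.64 ± 0.34). Selenbp2, a selenium-binding protein gene, lay at -0.86, -1.13, -0.84, -0.64 and -0.50 in females and at 1.65, 1.86, 1.62, 0.54 and 1.59 in males (-2.25 ± 0.19), and its second probe gave -2.13. Male animal 11 was the low male here as well, and without it the difference was -2.48. Both probes therefore read the same size, unlike those of Hsd3b5. Asns, which makes asparagine, lay at -1.33, -1.54, -1.65, -1.24 and -1.41 in females and at 2.20, 2.0, 1.87, -0.75 and 2.52 in males (-3.0 ± 0.41). Animal 11, at -0.75, was again the low male, and without it the difference was -3.58. The aldehyde oxidase gene Aox3 differed by -2.20 ± 0.29, the peroxisomal coenzyme A diphosphatase gene Nudt7 by -2.12 ± 0.31, and the terminal complement gene C9 by -2.0 ± 0.32. The pro-apoptotic gene Bmf differed by -2.35 ± 0.25, the stromal surface protein gene Cd248 by -2.54 ± 0.32, the matrix proteoglycan gene Omd by -2.49 ± 0.35, and the pseudogene Serpina4-ps1 by -2.82 ± 0.69. Animal 11 was the lowest male for Bmf, Cd248 and C9 too, and the highest for Serpina4-ps1, which differed by -2.66 without it. Moxd1, a monooxygenase of the dopamine hydroxylase family, overlapped between the groups and so was not among the 30. It lay at -2.11, -2.08, -2.24, -1.03 and -1.91 in females and at 2.24, 1.62, 1.05, -1.59 and 4.39 in males (-3.42 ± 0.49, adjusted p = 6.03e-06). The male SD was 2.16 against a female SD of 0.49, and the difference ranged from -4.20 to -2.70 as single animals were left out. The SE and p of Moxd1 rest on the spread pooled over all 8 groups, so they do not measure the scatter of the intact males.

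Counts per list, here and below, are to be read beside the 9.55% of all named autosomal genes that passed, 4.04% higher and 5.51% lower in females. Taken by family, the P450 genes did not move one way. All 5 measured Cyp2b genes passed, 4 higher and 1 lower in females. Cyp2b10, the family member most used as a marker of drug induction, was higher at 0.99 ± 0.23, and Cyp2b19, known from skin, was lower at -0.64 ± 0.079 by its more variable probe and at 0.14, without passing, by the other. Of the Cyp2c genes, 4 of 10 were higher and 0 lower, with Cyp2c37 at 1.18 ± 0.19, Cyp2c23 at 0.45 ± 0.13 and Cyp2c38 at 0.44 ± 0.13. The smaller calls were less firm, since Cyp2c23 lost its call without animals 3, 5, 8 or 10, at as little as 0.36, and Cyp2c38 without animals 4, 5, 8, 10 or 12, at as little as 0.35. Of 4 Cyp2d genes only Cyp2d9 passed, and Cyp2d10 lay at -0.45 ± 0.19. Of 5 Cyp3a genes none passed, and Cyp3a16 (0.68 ± 0.43) and Cyp3a11 (-0.35 ± 0.40) had wide errors. Of 11 Cyp4 genes 2 were higher (Cyp4b1 at 0.41 ± 0.095, Cyp4f14 at 0.52 ± 0.12) and 2 lower, Cyp4a12a and its near copy Cyp4a12b at -0.93 ± 0.10. A second Cyp4b1 probe gave 0.13 and did not pass. Among 16 other P450 and reductase genes, 2 were higher and 3 lower. The retinoic acid hydroxylase gene Cyp26b1 lay at -0.97 ± 0.12, the epoxygenase family gene Cyp2j6 at -0.58 ± 0.11 and the vitamin D hydroxylase gene Cyp2r1 at -0.72 ± 0.16, all lower in females.

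Conjugating enzymes were taken by the group they transfer. Of 12 sulfotransferase genes 5 were higher in females and 0 lower, with a list median of 0.47, and besides Sult2a1 and Sult3a1 they included Sult1c2 (0.99 ± 0.19) and the cholesterol sulfotransferase gene Sult2b1 (0.72 ± 0.17). Of 4 genes of glucuronidation 0 were higher and 2 lower. These were Ugt2b5, a glucuronosyltransferase of steroids, at -1.40 ± 0.27, and Ugdh, which makes the glucuronic acid donor, at -0.96 ± 0.20. Ugt2b5 lay at -1.07 to -0.15 in females, against 1.16, 1.0, 1.0, 0.014 and 0.95 in males, with animal 11 the lowest male, and its other probes gave -0.59 and -0.034. Of 6 acyl- and acetyltransferase genes 0 were higher and 3 lower, all of the Nat8 family. Glutathione transferase genes went both ways, 3 higher and 2 lower of 15 (33.3%), among them Gsto1 at 0.54 ± 0.094 and Gstp1 at -0.89 ± 0.19. Male animal 9 was high for Gstp1, at 1.48 against 0.21 to 0.37 in the other males.

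Oxidoreductase genes outside the P450 family that passed were mostly lower in females. Of 19 flavin monooxygenase, alcohol and aldehyde oxidoreductase genes 1 was higher and 7 were lower. Over all 19, 10 differences were positive and 9 negative, with a median of 0.023. The alcohol dehydrogenase gene Adh4 lay at -0.73, -0.79, -0.73, -0.75 and -1.04 in females and at 0.41, 0.30, 0.63, 0.62 and 0.42 in males (-1.29 ± 0.21), with no overlap. The aldehyde oxidase gene Aox1 lay at -1.01 ± 0.18, next to Aox3 above. The 1 gene higher in females was the flavin monooxygenase Fmo1 (0.85 ± 0.17). Carboxylesterase genes, which hydrolyse esters and lipids, were divided 2 higher to 2 lower of 12 (33.3%). Ces1c was higher at 0.98 ± 0.18, while Ces3a (-1.13 ± 0.24) and Ces3b (-1.18 ± 0.24) were lower. Of 16 steroid dehydrogenase and reductase genes 1 was higher and 3 were lower, with Hsd3b2 at -1.19 ± 0.24 beside Hsd3b5 and Cyp7b1. The gene higher in females was Hsd17b1, an estradiol-making dehydrogenase, at 0.26 ± 0.081, a call lost without animals 3, 4, 5, 8, 10 or 12, at as little as 0.22.

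Genes of the growth hormone pathway itself passed at close to the share of all genes. Of 19 genes of growth hormone and insulin-like growth factor signalling 1 was higher and 1 was lower in females, 10.5% against 9.55% of all named autosomal genes. The one lower in females was Egfr, the epidermal growth factor receptor, at -0.69, -1.07, -1.19, -0.78 and -0.62 in females and 0.95, 0.68, 0.93, 0.49 and 1.2 in males (-1.72 ± 0.29, adjusted p = 8.4e-05). The receptor gene Ghr lay at -0.48 ± 0.23 (adjusted p = 0.223), with a 95% interval of -0.95 to -0.006 before adjustment, and Stat5b lay at -0.01 ± 0.063. Stat5a lay at 0.60 ± 0.21 (adjusted p = 0.0796), although its groups did not overlap. Socs1, a feedback inhibitor, was higher at 0.52 ± 0.16, a call lost without animals 3, 4, 8, 9, 10 or 12, at as little as 0.37. Of 24 transcription regulators linked to liver sex differences in mouse work 1 passed, the HMG-box gene Tox at 0.80 ± 0.23, which lost its call without animals 1 or 9, at as little as 0.66. Trim24, a coregulator, lay at 0.80 ± 0.27 with an adjusted p of 0.0586 and no overlap between the groups. Of 13 nuclear receptor and hormone-binding genes 0 were higher and 2 lower, the thyroid hormone receptor gene Thrb (-0.24 ± 0.065) and Shbg, whose product binds sex steroids (-0.21 ± 0.061). Thrb lost its call without animal 12 (-0.22), and Shbg without animals 1, 5, 8 or 10, at as little as -0.17. The estrogen receptor gene Esr1 lay at 0.018 ± 0.12.

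Secreted defence and binding proteins formed a further set. Of 26 complement genes 1 was higher and 5 were lower in females (23.1%). The terminal component genes C9 and C6 (-0.32 ± 0.054) and the protease gene C2 (-0.56 ± 0.091) were lower, and the lectin gene Colec11 was higher (0.53 ± 0.094). Of 22 serpin and protease inhibitor genes 2 were higher and 4 lower (27.3%). Serpina6, which encodes the corticosteroid-binding globulin, lay at -0.48, -0.54, 0.11, -0.59 and -0.06 in females and at -2.51, -1.62, -1.85, -0.70 and -1.97 in males (1.42 ± 0.29). With quantile normalization it lay at 1.00 and lost its call. Acute phase and secreted protein genes that passed were higher, 6 of 23 with 0 lower, although the list median was 0.042. After A1bg, those that passed included the iron hormone gene Hamp (1.16 ± 0.34, described below), the secreted angiopoietin-like gene Angptl6 (0.40 ± 0.097) and the thyroxine carrier gene Ttr (0.57 ± 0.15), which lost its call without animal 10 (0.47). Coagulation genes showed 1 call in 18, 5.56%, which was F7 at 0.37 ± 0.11, and it was lost without animals 3, 5, 8, 10 or 12, at as little as 0.33.

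Carrier genes that passed lay in both directions. Of 18 organic anion, cation and bile salt transporter genes 4 were higher and 3 lower (38.9%). Slc22a30 (-1.06 ± 0.18) and the bile salt and steroid conjugate carrier gene Slco1a1 (-1.55 ± 0.27) were lower in females, opposite to Slc22a26 and Slc22a27. Slco1a1 lay at -0.13, -0.35, -0.77, -0.66 and -0.57 in females and at 1.80, 1.03, 1.12, 0.26 and 1.08 in males. Of 23 ABC transporter genes 3 were higher and 3 lower (26.1%). The canalicular efflux pump gene Abcg2 lay at -0.24, -0.024, -0.49, -0.69 and -0.84 in females and at 1.19, 1.2, 1.22, 0.30 and 1.29 in males (-1.50 ± 0.23), with animal 11 the low male. Abcd2, a peroxisomal fatty acid carrier, was higher in females (1.79 ± 0.30), as was the drug efflux pump gene Abcb1a (1.55 ± 0.28), while its paralog Abcb1b was lower (-0.45 ± 0.091). Nutrient and metal transporter genes passed at about the background share, 4 of 39 or 10.3%.

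Lipid and sterol genes are set against the 9.55% of all named autosomal genes that passed. Of 17 cholesterol synthesis and uptake genes 0 were higher and 2 lower (11.8%), with 14 of the 17 differences negative and a median of -0.13. Insig1, which retains the sterol sensor in the endoplasmic reticulum, lay at -1.19, -1.48, -1.50, -0.54 and -0.90 in females and at -0.38, -0.20, -0.27, 0.25 and -0.033 in males (-1.0 ± 0.24). Fdps, of isoprenoid synthesis, lay at -0.76 ± 0.25 with an adjusted p of 0.0478, which it lost without animals 1, 2, 3, 8, 10, 11 or 12 (-0.94 to -0.62 over all 10), with median centring (-0.77), with the clock index as covariate (-0.75), with only the 10 intact arrays in the fit and with its probes averaged (-0.39). Of 27 fatty acid and triglyceride synthesis genes 1 was higher and 1 was lower, or 7.41%. The lower one was Elovl3, and the higher one Acaca, a fatty acid synthesis enzyme, lay at 0.49 ± 0.14. Acaca lost its call without animals 3, 5, 8, 10 or 12, at as little as 0.42, with quantile normalization (0.46) and with its 3 probes averaged (0.14). Of 29 fatty acid oxidation genes 4 were higher and 1 was lower (17.2%), with 24 of the 29 differences positive. Pdk4, a kinase that restrains glucose oxidation in fasting, lay at 2.04, 2.33, 1.01, 1.37 and 0.82 in females and at 0.45, -0.46, 0.081, -0.40 and -0.55 in males (1.69 ± 0.25, adjusted p = 1.13e-05). Acadl, of mitochondrial oxidation, was higher at 0.36 ± 0.095, and the glycolate oxidase gene Hao1 was lower at -1.16 ± 0.24, opposite to Hao2. Lipid uptake genes that passed were all higher, 3 of 25 or 12.0%: the fatty acid translocase gene Cd36 (1.18 ± 0.28), the lipoprotein receptor gene Vldlr (0.89 ± 0.17) and Gpihbp1, which holds lipoprotein lipase on capillaries, (0.41 ± 0.083). The list as a whole had no lean, with 12 positive and 13 negative differences and a median of -0.013.

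Bile acid synthesis genes showed 1 higher and 2 lower of 20 (15%, against 9.55% of all named autosomal genes), and the pair of oxysterol hydroxylases in the list went opposite ways. Cyp39a1 lay at 1.63, 0.92, -0.21, -0.29 and 0.64 in females and at -0.24, -0.86, -0.69, -1.86 and -1.05 in males (1.48 ± 0.33), with an overlap between groups, while Cyp7b1 was lower in females as given above. Amino acid metabolism gave 2 higher and 3 lower of 34 (14.7%), with Asns followed by the glycine cleavage gene Gcsh at -0.80 ± 0.17 and the pyrimidine catabolism gene Dpys at 0.59 ± 0.12. Glucose and glycogen genes gave 1 higher and 1 lower of 26, 7.69%. In heme and iron metabolism 2 were higher and 2 lower of 20 (20%). The X-linked erythroid heme synthesis gene Alas2 lay at -0.72, -0.86, -1.06, -0.88 and -0.86 in females and at 0.57, 0.49, 0.84, 1.14 and 0.88 in males (-1.66 ± 0.24), while the 6 measured red cell precursor markers, of which it is 1, showed no other call. Their mean log2 ratio lay at -0.40 to -0.13 in females and -0.19 to 0.25 in males, and the part of such cells in the Alas2 difference was not tested. Hamp, the iron hormone hepcidin, lay at 0.32, 0.66, 0.64, 0.65 and 0.94 in females and at -0.82, -0.074, -0.89, -0.42 and -0.39 in males (1.16 ± 0.34), with no overlap. Its call was lost without animals 2, 4, 5, 8 or 10, at as little as 1.07, and with quantile normalization (1.24).

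Stress response genes that passed were mostly lower in females. Of 20 oxidative stress response genes 1 was higher, the quinone reductase gene Nqo1 (0.60 ± 0.12), and 6 were lower. These included Selenbp2, the glutathione synthesis gene Gclm (-0.34 ± 0.082) and catalase, Cat (-0.80 ± 0.20). Catalase rested in part on 1 male, since animal 8 lay at 1.72 and the other males at 0.23 to 0.51, and without animal 8 the difference was -0.53 and lost its call. Of 21 genes of the unfolded protein and integrated stress responses 1 was higher and 2 were lower (14.3%), and those lower were Asns and the chaperone gene Calr (-0.65 ± 0.16). A second Calr probe gave -0.35 and did not pass. Of the clock genes, 0 of 5 of the Arntl phase passed, and 2 of 10 of the opposite phase were lower in females, Nr1d2 (-0.67 ± 0.17, 0.075 by another probe) and Nr1d1 (-0.73 ± 0.22). Nr1d1 lost its call without animals 2, 3, 4, 10, 11 or 12, at as little as -0.63. A clock index, the mean of the first list minus that of the second, was 0.549 to 0.889 in females and 0.204 to 0.669 in males. Its group mean was 0.732 in intact females and 0.492 in intact males. In the gonadectomized groups the means ran from -0.473 (ovariectomized with DHT) to 0.0384 (ovariectomized with estradiol). Collection time is not in the labels, and with the index as a covariate 2055 probes passed in place of 2048, of which 1820 were among the 2048.

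Cell cycle genes leaned to females, 6 higher and 1 lower of 31 (22.6%). Ccnd1, cyclin D1, lay at 0.11, 0.48, 0.54, 0.68 and 0.12 in females and at -1.31, -1.92, -0.98, -0.99 and -1.06 in males (1.64 ± 0.20, adjusted p = 4.75e-07). The cycle inhibitor genes Cdkn1a (1.16 ± 0.25) and Cdkn2c (0.35 ± 0.08) were higher as well, with Gadd45b above, so genes that drive and genes that arrest the cycle were both higher. Interferon-responsive genes that passed were all higher in females, 6 of 24, and 21 of the 24 differences were positive with a median of 0.36 against 0.014 over all named autosomal genes. The guanylate-binding protein gene Gbp3 lay at -0.12, 0.067, 0.66, 0.25 and 0.065 in females and at -0.50, -1.27, -0.92, -1.11 and -0.55 in males (1.06 ± 0.26). Oasl2 (0.82 ± 0.21), Oasl1 (0.52 ± 0.13) and Ifit3 (0.87 ± 0.23), all of this list, did not overlap between the groups either. The mean over the list lay at -0.21 to 0.32 in females and -0.53 to -0.16 in males, so the list means of single animals overlapped slightly. Oasl1 lost its call with quantile normalization, at 0.46.

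Marker genes of other liver cells were examined beside these results. Of 16 lymphocyte markers 2 were higher and 2 of the differences were negative, with list means of -0.03 to 0.20 in females and -0.22 to -0.031 in males. Of 13 macrophage markers none passed, though 11 differences were positive and the list means were -0.46 to 0.074 in females and -0.61 to -0.15 in males. All 11 endothelial markers were positive and 1 passed, with list means of 0.052 to 0.12 in females and -0.11 to 0.052 in males. The part of these cells in the interferon and cell cycle differences was not tested. Of 11 stellate cell and fibroblast markers 3 were higher in females, the matrix glycoprotein gene Reln (0.46 ± 0.091), the growth factor receptor gene Pdgfra (0.46 ± 0.11) and the actin gene Acta2 (0.40 ± 0.12). The fourth that passed, Cd248, was lower in females, and 3 of the 11 differences were negative. Acta2 lost its call without animals 3, 4, 8, 10 or 12, at as little as 0.32. Bile duct, neutrophil, pancreas and muscle markers, 21 measured genes in all, showed no call. Of 6 fat cell markers 1 was higher and 1 was lower in females. Of 7 hepatocyte markers 1 passed, Ttr, which was higher in females, while the other 6 differences were negative. The list median was -0.11, and the list means were -0.12 to 0.24 in females and -0.11 to 0.38 in males. Respiratory chain genes (0 of 21) and cytosolic ribosomal protein genes (1 of 33) were below the background share of 9.55%.

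**Figure D3:**
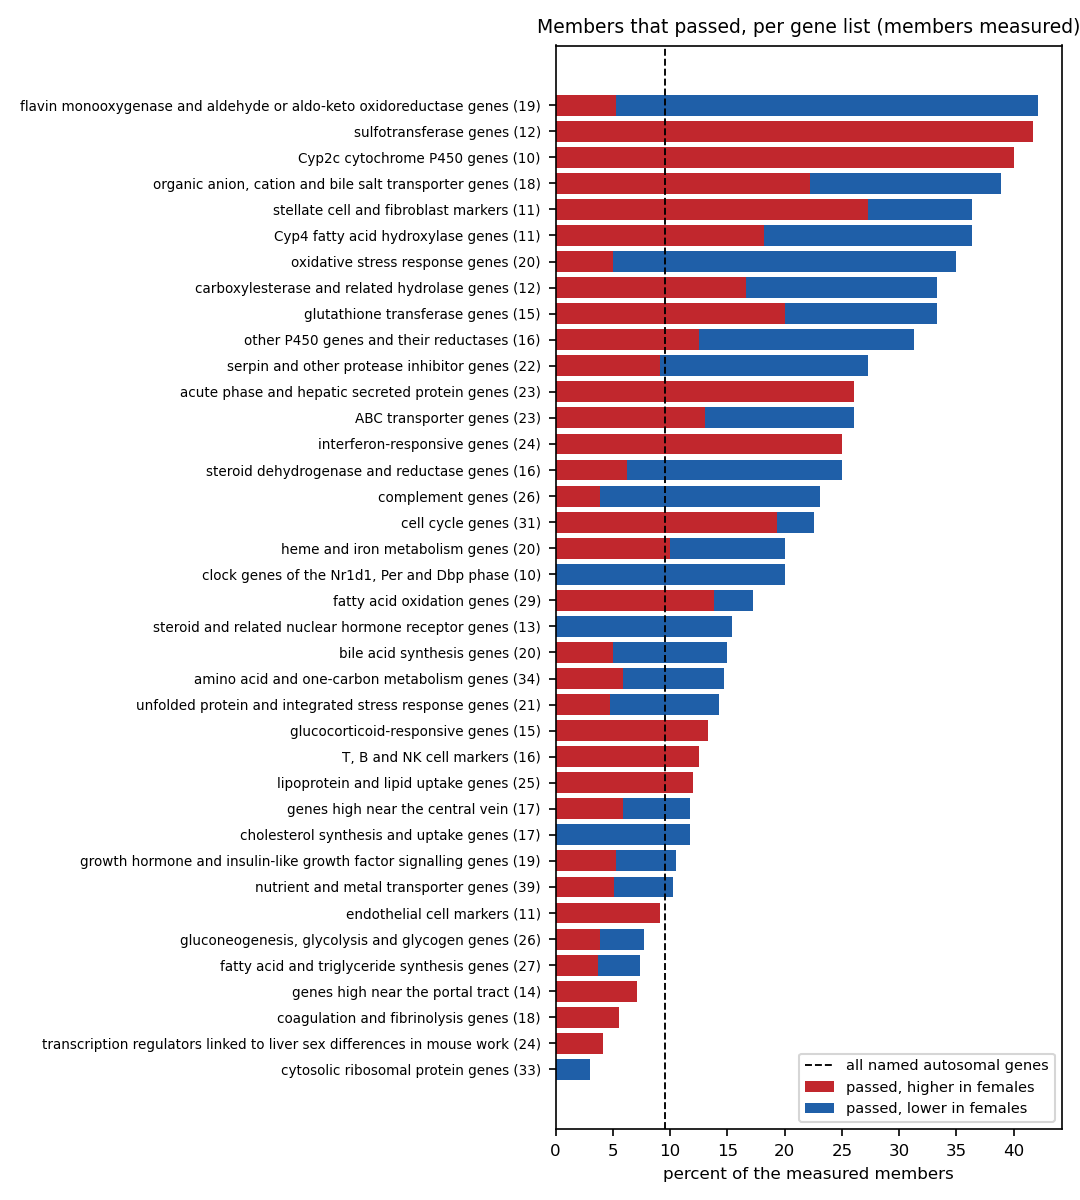
Bars give the percent of measured members of each gene list that passed, higher (red) or lower (blue) in females, for lists of at least 10 measured genes with a call, and the dashed line marks 9.55% for all named autosomal genes. Sulfotransferase and Cyp2c bars are red only, at 41.7% and 40.0%, and the oxidoreductase bar of 42.1% is mostly blue.

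Genes that passed were then set beside their neighbours in the genome. In the gene order of RefSeq, both members passed in 103 of 10421 pairs of neighbouring measured genes (0.988%), 58 of them in the same direction (56.3%) and 45 in opposite directions. Of single named autosomal genes 9.55% passed, so some neighbours pass together by coincidence. The share of pairs this would give was not computed, and the counts alone do not show that passing genes cluster. There were 5 runs of 3 neighbours in 1 direction, all within 1 gene family. On chromosome 7 Cyp2b10, Cyp2b13 and Cyp2b9 were higher in females, at 0.99 to 6.14. On chromosome 19 Slc22a19, Slc22a26 and Slc22a27 were higher at 0.14 to 5.81, and Cyp2c38, Cyp2c40 and Cyp2c37 at 0.44 to 2.77. On chromosome 6 Nat8, Nat8f2 and Nat8f1 were lower in females, at -4.64 to -0.41, and on chromosome 8 Ces3a, Ces3b and Ces4a at -1.78 to -1.13. Within each run the sizes were unequal. Slc22a19 lay at 0.048, 0.16, 0.11, -0.027 and 0.085 in females and at -0.054, 0.022, -0.22, -0.048 and -0.038 in males, which overlapped, while the nearest animals of Slc22a26 beside it were 4.92 apart. Nat8f2 lay at -0.069, -0.16, -0.36, -0.25 and -0.19 in females and at 0.28, 0.23, 0.40, 0.11 and 0.44 in males, a difference of -0.50 ± 0.12 beside -4.64 for Nat8. Pairs in 1 direction included Cyp4a12a with Cyp4a12b, Hsd3b5 with Hsd3b2, Aox1 with Aox3, Serpina12 with Serpina4-ps1, Omd with Ogn, Acot3 with Acot5 and Ifit3 with Ifit1. The Slc22a26 and Slc22a27 promoter windows were 46.3% identical, against 99.3% for Cyp2b13 and Cyp2b9. Members of such families are close in sequence, and reads of 1 gene by another's probe were not tested.

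**Figure D4:**
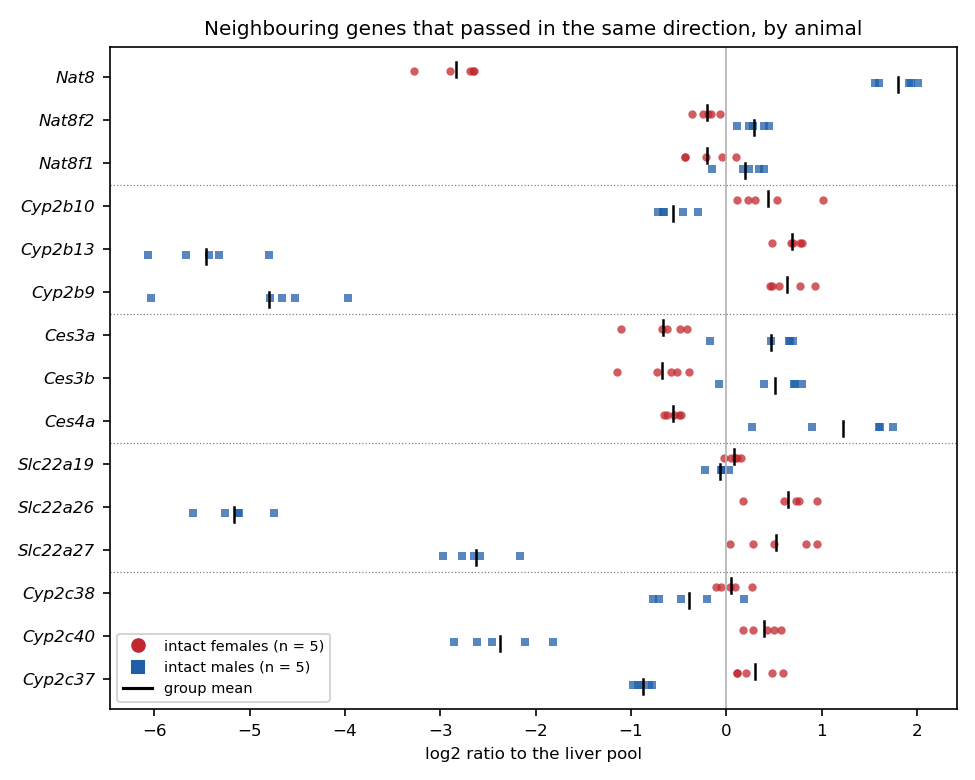
The log2 ratio to the liver pool (x axis) is shown per animal for the 5 runs of 3 neighbouring genes that passed in the same direction, with intact females as red circles, intact males as blue squares and group means as black bars. Cyp2b13, Slc22a26 and Nat8 are far apart between the sexes with a neighbour that differs by under 1, while the 3 Ces genes differ by -1.78 to -1.13.

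The intact difference was then set against the sex difference in livers without gonads, which came from other animals. Ovariectomized and castrated livers differed for 16 probes with placebo (0.0679%), 32 with estradiol (0.136%) and 19 with DHT (0.0806%), where 2048 differed between intact livers. Of the named autosomal genes these were 4 (0.0383%), 16 (0.153%) and 5 (0.0479%). The 30 genes above, chosen for their intact difference, had a median size of 2.95 in intact livers, 0.374 with placebo, 0.527 with estradiol and 0.453 with DHT. With placebo 1 of them passed, Sult2a1, with estradiol 3 (Sult2a1, Nat8 and Cyp2d9) and with DHT 1 (Nat8). The difference between the intact and the gonadectomized sex differences passed for 1038 probes with placebo (4.4%), 383 positive (1.62%) and 655 negative (2.78%), 316 with estradiol (1.34%) and 901 with DHT (3.82%). With quantile normalization the placebo count was 530 and the estradiol count 18. The clock index had lower group means in gonadectomized than in intact livers, and the cause was not tested. With this index as covariate the counts were 946 with placebo, 312 with estradiol and 949 with DHT. Of these, 854, 297 and 792 were among the probes that passed without it. Without animal 11 the estradiol count was 570 and the DHT count 2052, and without animal 8 they were 156 and 545.

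Without gonads the sex difference was under 2-fold for 24 of the 30 genes with placebo, 23 with estradiol and 25 with DHT. Its sign was that of the intact difference for 15 of the 30 with placebo, 28 with estradiol and 26 with DHT. Cyp2b13 differed by 0.45 ± 0.72 with placebo, and its levels relative to the pool were 1.03 ± 0.28 in ovariectomized and 0.58 ± 0.20 in castrated livers (SD, n = 5 each). Both lay near the intact female level. Hsd3b5 differed by 0.19 ± 0.73 with placebo, at -3.84 ± 0.21 in ovariectomized and -4.04 ± 0.19 in castrated livers, both near the intact female level. With estradiol Hsd3b5 differed by -2.15 ± 0.73, at -4.22 ± 0.22 in ovariectomized and -2.07 ± 1.55 in castrated livers, which did not pass (adjusted p = 0.434). With DHT Cyp2b13 lay at -2.83 ± 2.25 in ovariectomized and -3.28 ± 2.34 in castrated livers, and Hsd3b5 at -0.55 ± 1.96 in ovariectomized and 0.74 ± 2.25 in castrated livers. The intact difference exceeded that with placebo by 5.84 ± 0.79 for Slc22a26 (adjusted p = 1.47e-05), 5.69 ± 1.02 for Cyp2b13, 5.23 ± 0.86 for Cyp2b9 and 3.84 ± 0.90 for Sult3a1. With quantile normalization the Sult3a1 value was 2.49 and did not pass (adjusted p = 0.0609). Among genes lower in intact females, Hsd3b5 changed by -5.74 ± 1.03, Elovl3 by -4.40 ± 0.59, Cyp7b1 by -3.86 ± 0.96 and Moxd1 by -3.65 ± 0.70. Moxd1 lay at -1.81 ± 0.081 and -2.05 ± 0.34 in ovariectomized and castrated livers with placebo, and at -1.86 ± 0.41 and -1.64 ± 0.24 with DHT. These group means all lay below the 5 intact males, but the lowest intact male lay within the SD of both DHT means.

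Of the 30 genes, Sult2a1, Nat8 and Cyp2d9 passed in at least 1 comparison of gonadectomized livers, and only Sult2a1 passed with placebo. Sult2a1 differed by 3.77 ± 0.61 with placebo (adjusted p = 0.000994) and 3.92 ± 0.61 with estradiol (adjusted p = 0.000382), and the intact difference exceeded that with placebo by 0.51 ± 0.86, which did not pass (adjusted p = 0.801). With DHT its sex difference was 1.13 ± 0.61 and did not pass. Nat8 differed by -1.50 ± 0.34 with placebo, which did not pass (adjusted p = 0.107), and by -1.91 ± 0.34 with estradiol and -1.87 ± 0.34 with DHT, which did. These were smaller than the intact difference, by -2.73 ± 0.48 and -2.76 ± 0.48 (adjusted p = 0.00215 and 0.000558). With quantile normalization the estradiol term for Nat8 was -2.35 and did not pass (adjusted p = 0.126). Cyp2d9 differed by -2.13 ± 0.42 with estradiol, and the intact difference minus this one was -1.70 ± 0.60, which did not pass (adjusted p = 0.185). With placebo it differed by -1.75 ± 0.42, which did not pass (adjusted p = 0.166), and the intact difference minus this one was -2.09 ± 0.60 (adjusted p = 0.036). A1bg passed in none of the gonadectomized comparisons. With placebo it differed by 2.79 ± 0.77 (adjusted p = 0.364), at 1.48 ± 0.75 in ovariectomized and -1.30 ± 0.92 in castrated livers.

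**Figure D5:**
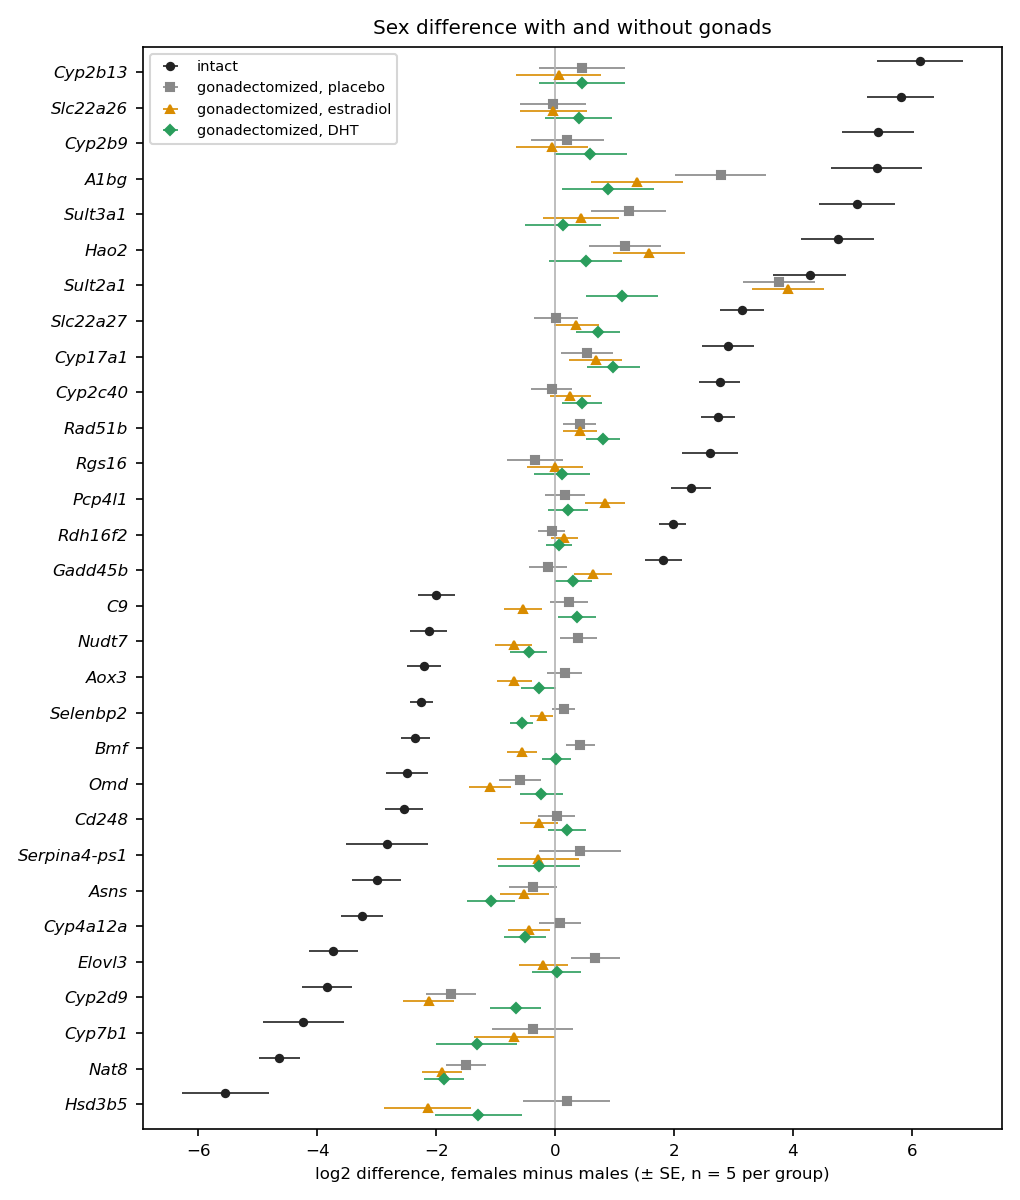
Points give the log2 difference of females minus males ± SE (x axis, 5 animals per group) for the 30 genes in intact livers (black circles) and in gonadectomized livers with placebo (grey squares), estradiol (orange triangles) or DHT (green diamonds). Intact differences run from -5.55 to 6.14, while in gonadectomized livers 24 of the 30 genes lie under 2-fold with placebo, 23 with estradiol and 25 with DHT. The widest of the others are Sult2a1 with placebo and estradiol and A1bg with placebo, and Hsd3b5 with estradiol lies at -2.15 without passing.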

How the data were processed

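The authors deposited log10 ratios of liver (Cy5) to a liver pool (Cy3) for 23574 probes on 40 arrays, with 0 missing values and 0 columns left unused. Background subtraction, normalization and centring are not given in the sources used here. Array medians ran from -0.0135 to 0.0109, and 29 values on 16 probes lie at the table's limits of 2 and -2. The log base was judged from Eif2s3y, whose mean over 20 males was 1.94-fold over the pool read as log10 and 1.22-fold read as log2. A pool of equal parts of 40 livers, 20 of them male, would give 2-fold for RNA found only in males. The labels give 40 mice for the pool but neither their sexes nor their parts, so this make-up was assumed. Values were converted to log2.

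Probes were named from the platform annotation where the Entrez identifier is in the RefSeq table: 12662 probes of 10842 genes, 10440 of them autosomal. The probe with the largest SD over 40 arrays stood for the 1157 genes with over 1. One linear model with a mean for each of the 8 groups took in all 40 arrays (limma 3.58.1, R 4.3.3, lmFit and eBayes, 32 residual and 3.42 prior degrees of freedom), with two-sided p-values adjusted by Benjamini-Hochberg over all probes, and was tested on simulated data first. Further contrasts took the intact sex difference minus that with placebo, estradiol or DHT. Alternatives were quantile normalization, median centring, array weights, robust moderation, only the groups compared, probes at the limit left out, only the more variable probes (SD above the median), a clock index as covariate, averaged probes, and leaving out each animal. The number of arrays limits the precision, since signal over background was not used here.

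The genes named are the 15 highest and 15 lowest autosomal genes that passed without overlap between groups, up to 4 members with the smallest adjusted p of each list described, the Y-linked and X-escape genes, Esr1, Ghr, Stat5b and a gene that is not reported here, and the 4 highest and 4 lowest genes of each further contrast. Clone names were left out. Neighbours of the runs, and Cyp2b10, Slc22a19, Ces4a, Serpina12, Ogn, Acot3, Acot5 and Ifit1, were named after their values were seen where no other rule names them. The 58 lists hold 822 measured genes. Members and lists were chosen with earlier results of these data known, so lists are described by counts and medians with no set test. A total of 11 lists, with 82 genes, had no call.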

Additional observations from a re-analysis of the deposited data

Results flagged for a closer look

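A total of 324 sets of 5 animals (162 named genes in each intact group) were searched for 1 animal far from the other 4, and 26 had one. Chance gives about 1 in 20 such sets. Of the 26, 22 were in males and 15 were male animal 11. Animal 11 was low for Cyp7b1 (-0.66, others 1.55 to 2.02), Asns (-0.75, others 1.87 to 2.52), Selenbp2 (0.54), Ugt2b5 (0.014), Itih2 (-0.68), Slc22a30 (0.40), Abcg2 (0.30), Abcb1b (-0.15), Steap2 (-0.75), Dnajc3 (-0.36) and Eif2s3y (0.41). It was high for Serpina4-ps1 (1.72), Cyp4f14 (0.12), Sult1c2 (-0.40) and Acaca (0.064). Other males stood alone for Gstp1 (animal 9, 1.48), Ces3a (animal 9, -0.17), Tox (animal 9, -1.44), Bhlhe41 (animal 9, 0.38), Mgst2 (animal 12, 0.091), Colec11 (animal 10, -0.41) and Cat (animal 8, 1.72). Single females stood alone for Adh4 (animal 5, -1.04), Scp2 (animal 5, -0.82), Zfy2 (animal 3, 0.20) and Moxd1 (animal 4, -1.03).

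The sex difference changed between intact and gonadectomized livers by the limma contrast of the 2 differences. This held for 1038 probes with placebo, 316 with estradiol and 901 with DHT. With placebo the largest named changes were 5.84 for Slc22a26, 5.69 for Cyp2b13, 5.23 for Cyp2b9 and 3.84 for Sult3a1, and -5.74 for Hsd3b5, -4.40 for Elovl3, -3.86 for Cyp7b1 and -3.65 for Moxd1. With estradiol they were 6.08 for Cyp2b13, 5.84 for Slc22a26, 5.49 for Cyp2b9 and 4.65 for Sult3a1, and -3.53 for Elovl3, -3.38 for Moxd1, -2.80 for Cyp4a12a and -2.73 for Nat8. With DHT they were 5.69 for Cyp2b13, 5.42 for Slc22a26, 4.94 for Sult3a1 and 4.84 for Cyp2b9, and -4.26 for Hsd3b5, -3.75 for Elovl3, -3.20 for Moxd1 and -3.17 for Cyp2d9. With quantile normalization 4 of these changes did not pass: Sult3a1 with placebo (2.49, adjusted p = 0.0609), Cyp4a12a with estradiol (-2.38, adjusted p = 0.0949), Nat8 with estradiol (-2.35, adjusted p = 0.126) and Hsd3b5 with DHT (-4.37, adjusted p = 0.0524). The Sult3a1 change with DHT was 3.21 under it and passed.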

How the results depend on the processing

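The 2048 probes that passed between intact livers became 1249 with only the 10 intact arrays in the fit (1137 shared), 1358 among the more variable probes (SD above the median), and 5443 (2923 higher and 2520 lower in females) with array weights. Leaving out each animal gave 1455 (male 8) to 2604 (male 11). For the intact minus placebo difference the 1038 became 530 with quantile normalization and 3007 with array weights, and 778 to 1243 without single animals. For estradiol the 316 became 182 with only the groups compared, 18 with quantile normalization and 1012 with array weights. Without single animals it was 156 (male 8) to 570 (male 11), with 208, 189, 205 and 205 without animals 5, 12, 36 and 37. For DHT the 901 became 6260 with array weights and 526 (castrated 61) to 2052 (male 11) without single animals, with 1394, 545 and 583 without animals 1, 8 and 50. The cause of these shifts was not tested. Of the named genes that passed, 26 lost their call with only the intact arrays, 17 with quantile normalization, 7 with the clock index, 2 with median centring, 2 with averaged probes and 1 with array weights. No named gene that passed changed sign under any of the alternatives run. Of 124 named genes that passed, 100 still passed whichever single animal was omitted, the 30 leading genes among them. No paired analysis was possible because the groups share no animal numbers.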
